A study of Homo sapiens with 18 samples.

Results

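The 29 genes described here code for enzymes that make cholesterol and fatty acids, and for proteins that control or follow that synthesis. They were taken as the entries of the RNA count table that carry the listed symbols, 29 of 55766 genes. The rule itself used no measured value, but the genes were chosen with earlier results of these data known. All 29 were found by symbol. All 29 also passed the filter on low counts, which kept 13786 genes. By role they comprised 6 genes of the early mevalonate pathway, 3 between squalene and lanosterol, 8 between lanosterol and cholesterol, 5 of control and transport, and 7 of fatty acid synthesis.

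The cells were K562, an established human erythroleukaemia line, and in every group they carried a transgene labelled B2M:tdTomato. The protein B2M is the light chain of MHC class I, and tdTomato fluoresces red. There were 3 groups: untreated cells, cells silenced with TALE proteins and cells silenced with dCas9, with 3 RNA-seq and 3 MeDIP-seq libraries in each. TALE and dCas9 are DNA-binding proteins that can be directed to a chosen sequence, TALE by its own repeats and dCas9 by a guide RNA. Per the labels, treated cells received plasmids for 3 different repressors in equal molar amounts, with 1 µg of the plasmid for the D3A-based repressor. The dCas9 treatment also included 250 ng of a guide RNA plasmid. All cells grew in medium with fetal bovine serum, which supplies lipoprotein cholesterol. The time from treatment to collection, and whether a population or a clone was collected, were not given in the sources used here. The labels number the replicates without saying that they are separate cultures, so p-values measure only the spread between these libraries, which may be technical. "Silenced" below stands for TALE and dCas9 averaged with equal weight.

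Cells make cholesterol from acetyl-CoA by way of mevalonate, squalene and lanosterol, and they make fatty acids from the same acetyl-CoA. Both routes are controlled by SREBP transcription factors, which SCAP carries out of the endoplasmic reticulum when membrane sterol is low and which INSIG proteins hold back when it is high. Many genes of the route are SREBP targets, so they commonly rise and fall together with the sterol supply of a culture. In promoters of this kind SREBP acts beside NF-Y, which binds CCAAT boxes.

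Total RNA counts per library ran from 8460076 to 12050554. The silenced target was low where the labels say so: the transgene entry of the table ran from 359 to 393 CPM (counts scaled to library size with TMM factors) in untreated libraries, from 12.5 to 18.2 in TALE and from 13.9 to 19.0 in dCas9. All 14 K562 marker genes passed the filter. Of 5 hepatocyte and 4 adipocyte markers, types known for high lipid synthesis, 0 passed it, and their highest count in a library was 14. Of 5 lymphocyte, 3 monocyte, 5 fibroblast and 4 epithelial markers 1, 1, 2 and 1 passed, and the summed level of the lymphocyte, monocyte and epithelial lists overlapped between all groups, the last at 84.8 to 123 CPM. Fibroblast markers summed to 5.32 to 10.8 CPM in untreated libraries, 7.3 to 11.7 in TALE and 6.73 to 7.2 in dCas9, so TALE lay above dCas9 and both overlapped untreated cells. Their part in the comparison of TALE with dCas9 was not tested. Lymphocyte markers summed to 16.5 to 29.8 CPM and monocyte markers to 15.5 to 26.5. One RNA library stood apart for the genes described here. TALE replicate 1 had a summed level of 4710 CPM over the 29 genes, against 5934 to 6698 in the other 8 libraries, so fold changes and medians that leaving it out moved by over 1.5 times are also given without it. The share of counts from the mitochondrial genome varied within groups, from 4.04% to 14.01% over all libraries. In bulk RNA, fewer cells that express a gene and less of its RNA per cell cannot be told apart.

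No gene of the set passed the test in any comparison. With edgeR's quasi-likelihood test and Benjamini-Hochberg adjustment over all genes tested, 0 of 29 were called in TALE against untreated cells, where 0.0218% of all genes were. The count was also 0 in dCas9 against untreated cells (0.029% of all genes), in TALE against dCas9 (0% of all genes) and in silenced against untreated cells (0.0363% of all genes). DESeq2 also called 0 of 29 in each of the 4 comparisons, where it called 9, 29, 0 and 36 of all 13786 genes in the same order. It passed 5, 0, 1 and 1 of 29 at an unadjusted p under 0.05, against 5.95%, 4.85%, 5.13% and 5.26% of all genes. At an unadjusted p under 0.05, edgeR passed 3 genes in TALE against untreated cells, all lower in TALE, against 7.15% of all genes. Without TALE replicate 1 it passed 1, against 4.92% of all genes. In dCas9 against untreated cells 0 of 29 passed, against 5.93% of all genes, and in TALE against dCas9 0 passed, against 6.38%. In silenced against untreated cells 1 gene passed, lower in silenced cells, against 6.35% of all genes.

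The fold changes that stayed short of the test leaned one way. In TALE against untreated cells 25 of 29 log2 fold changes were below 0, against 49.4% of all genes, with a median of -0.18 against 0.00 for all genes. Without TALE replicate 1 the count was 22 and the median -0.09, and with library totals in place of TMM the count was 21 and the median -0.10. In dCas9 against untreated cells 26 were below 0, against 50.8% of all genes, with a median of -0.13. Without dCas9 replicate 2 the count was 20 and the median -0.05. Silenced against untreated cells gave 26 below 0, against 49.9% of all genes, with a median of -0.15. These 3 comparisons share the untreated libraries and are not separate evidence of a direction. In TALE against dCas9, which does not use them, 20 were below 0, against 49.6% of all genes, with a median of -0.08. That median was 0.02 without TALE replicate 1 and 0.01 with library totals in place of TMM, so its sign rests on those choices. Without TALE replicate 1 and dCas9 replicate 2, the 2 libraries in which the set stood lowest, 22 of 29 were below 0 in silenced against untreated cells and the median was -0.07.

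Most of the 29 genes overlapped between groups library by library. With all libraries kept, the share of the set that lay wholly below was larger than that of all genes in each comparison. That excess was not tested, and the comparisons share libraries. The TALE libraries lay below every untreated library for 5 of 29 genes, against 6.44% of all genes, and above them for 0, against 6.09%. Without TALE replicate 1 it was the same 5 genes, MVD, IDI1, LSS, SCD and FADS1, against 10.4% of all genes. The dCas9 libraries lay below every untreated library for 4 genes, against 5.97% of all genes, and above them for 0, against 5.6%. TALE lay below dCas9 for 2 genes, against 4.5% of all genes, and above for 0, against 4.88%. Without TALE replicate 1 it lay below for the same 2, against 7.52% of all genes. Without dCas9 replicate 2 it lay below for 6, against 8.93% of all genes. All 6 silenced libraries lay below all 3 untreated ones for 2 genes, the desaturases SCD and FADS1, against 2.01% of all genes.

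**Figure D1:**
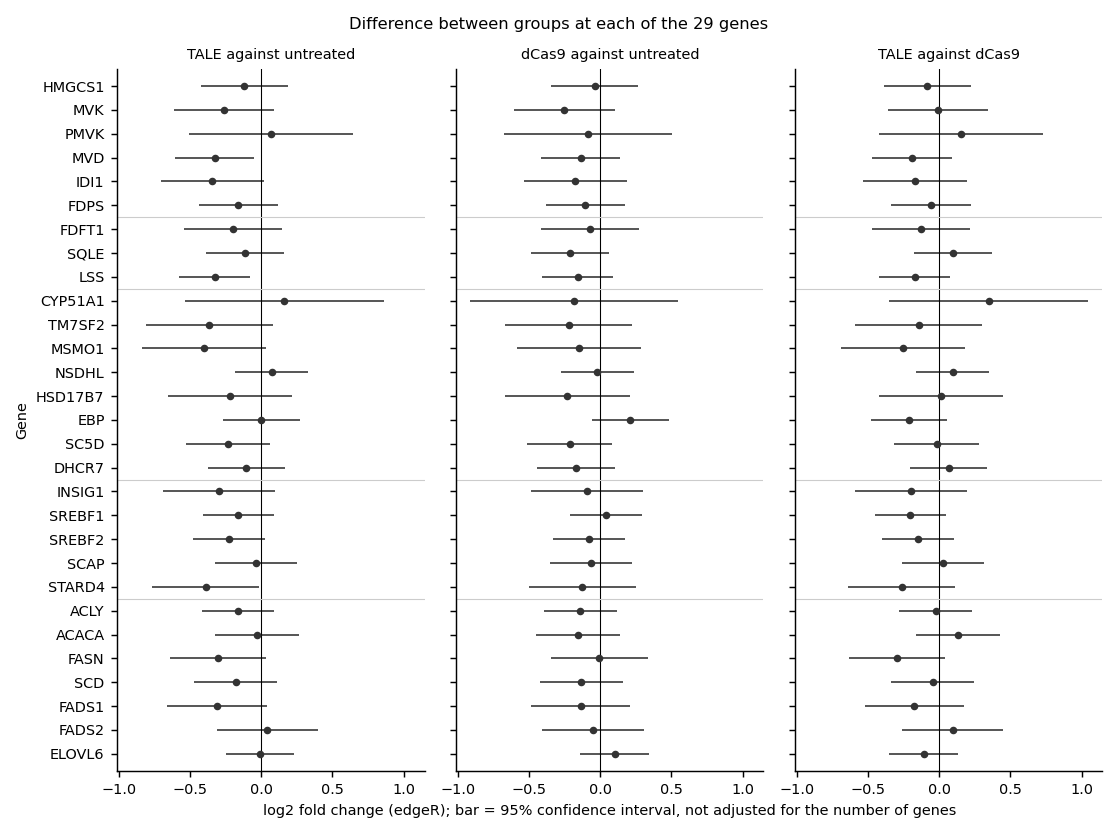
Log2 fold change of each of the 29 genes (vertical axis, in order of role, with grey lines between roles) in 3 comparisons, from edgeR. Points are the estimates and bars their 95% confidence intervals, not adjusted for the number of genes. Most points lie left of 0 in the first 2 panels, and the interval excludes 0 only for MVD, LSS and STARD4 in TALE against untreated cells.

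The intervals, not adjusted for the number of genes, show how precisely each fold change was estimated from these libraries. The standard error of a log2 fold change was 0.14 at the median gene in TALE against untreated cells, and ran from 0.11 to 0.33. Every 95% interval of that comparison lay within 1 log2 unit of 0, as did every one in dCas9 against untreated cells. In TALE against dCas9 28 of 29 did, the exception being the thinly counted CYP51A1. Differences that are small beside these standard errors could not be told from 0 with 3 libraries a group.

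Promoter sequences are shown for 6 of the genes. LSS, MVD and STARD4 had the smallest p in TALE against untreated cells, and MSMO1 and INSIG1 were among the genes that stood lowest in TALE replicate 1. SREBF2 was the only one of the 26 genes with a window read that held the sterol element searched for. Each sequence is the 250 bases before the RefSeq gene start (build GRCh38.p14), written 5′ to 3′ on the gene's own strand. Capitals mark CCAAT, the NF-Y box, read on either strand as CCAAT or ATTGG. In SREBF2 they also mark TCACCCCAC, a sterol regulatory element.
MVD (chr16:88663092-88663341, minus strand): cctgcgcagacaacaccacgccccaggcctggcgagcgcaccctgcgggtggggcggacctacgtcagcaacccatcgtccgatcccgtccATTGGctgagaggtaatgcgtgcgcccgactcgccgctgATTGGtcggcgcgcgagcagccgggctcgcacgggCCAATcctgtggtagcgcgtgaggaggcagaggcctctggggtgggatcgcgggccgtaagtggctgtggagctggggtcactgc
LSS (chr21:46228775-46229024, minus strand): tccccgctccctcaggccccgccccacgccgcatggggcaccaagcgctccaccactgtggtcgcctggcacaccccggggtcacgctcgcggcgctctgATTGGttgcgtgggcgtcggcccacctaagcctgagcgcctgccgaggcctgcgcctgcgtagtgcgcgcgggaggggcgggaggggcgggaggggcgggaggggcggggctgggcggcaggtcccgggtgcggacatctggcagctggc
MSMO1 (chr4:165327419-165327668, plus strand): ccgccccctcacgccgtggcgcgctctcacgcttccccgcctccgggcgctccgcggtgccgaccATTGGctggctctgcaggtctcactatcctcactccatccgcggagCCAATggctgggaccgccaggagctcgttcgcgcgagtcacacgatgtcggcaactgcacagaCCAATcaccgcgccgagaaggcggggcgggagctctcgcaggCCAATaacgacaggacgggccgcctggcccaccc
INSIG1 (chr7:155297628-155297877, plus strand): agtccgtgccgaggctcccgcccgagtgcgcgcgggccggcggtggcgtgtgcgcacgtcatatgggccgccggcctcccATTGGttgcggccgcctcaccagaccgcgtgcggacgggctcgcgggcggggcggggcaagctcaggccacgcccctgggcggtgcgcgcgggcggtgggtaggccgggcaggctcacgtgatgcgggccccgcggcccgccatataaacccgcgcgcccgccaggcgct
STARD4 (chr5:111512536-111512785, minus strand): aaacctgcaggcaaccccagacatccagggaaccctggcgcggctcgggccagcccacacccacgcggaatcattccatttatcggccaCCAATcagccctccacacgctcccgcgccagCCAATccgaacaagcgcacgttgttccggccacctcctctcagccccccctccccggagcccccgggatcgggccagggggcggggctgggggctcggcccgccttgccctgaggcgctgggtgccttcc
SREBF2 (chr22:41832855-41833104, plus strand): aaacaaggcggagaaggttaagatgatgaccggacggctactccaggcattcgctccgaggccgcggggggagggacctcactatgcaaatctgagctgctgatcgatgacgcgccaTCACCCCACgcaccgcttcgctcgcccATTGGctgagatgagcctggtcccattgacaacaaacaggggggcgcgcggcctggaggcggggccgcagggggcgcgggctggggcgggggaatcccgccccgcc
The RefSeq table held 35 starts for 26 of the 29 genes. FDFT1, SQLE and FASN had none there, so their promoters were not read. CCAAT, on either strand, was present before at least 1 start of 19 of the 26 genes, or 73.1%, against 10102 of the 27305 genes in that table. The Sp1 motif GGGCGG was present in 25 of 26, or 96.2%, against 46.2% of genes. The E-box CACGTG was present in 11.5% against 7.7%. TCACCCCAC was found for 1 gene, or 3.8%, against 0.5%. With 1 base left free, TCACNCCAC, it was again found for SREBF2 alone, against 1.1% of genes. All motifs were read on both strands and none of them contains another apart from the freed form of the sterol element. A match is a description of the letters, not of binding. The 27305 genes were not limited to those expressed here or to promoters of like base composition. Whether any excess is particular to this set was therefore not tested. MVD held 3 CCAAT boxes, MSMO1 4, STARD4 2, and LSS, INSIG1 and SREBF2 1 each.

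The early mevalonate genes include MVD, which makes isopentenyl diphosphate by decarboxylation of mevalonate diphosphate. MVD was at 49.7, 54.6 and 53.8 CPM in the untreated libraries, at 36.9, 46.0 and 42.7 in TALE and at 49.4, 38.8 and 55.3 in dCas9. All 3 TALE libraries lay below all untreated ones, while dCas9 overlapped both. The log2 fold change in TALE against untreated cells was -0.33 (SE 0.13), an edgeR adjusted p of 0.629 over all genes. An exact two-sided permutation test of log2(CPM + 0.5) gave p = 0.1, the smallest that 3 libraries against 3 allow. In silenced against untreated cells the log2 fold change was -0.23 (SE 0.11), with an edgeR adjusted p of 0.804 and an exact permutation p of 0.131.

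IDI1, the isomerase that turns isopentenyl diphosphate into its reactive isomer, was at 229, 224 and 253 CPM untreated, 132, 199.8 and 223 in TALE, and 256, 172 and 197 in dCas9. The groups TALE and untreated did not overlap, but TALE replicate 3 came within 1 CPM of untreated replicate 2. HMGCS1, which builds HMG-CoA, stood at 337, 314 and 297 untreated, 219, 338 and 314 in TALE, and 319, 297 and 307 in dCas9. TALE replicate 1 lay well below the other 8 libraries, which held together between 297 and 338. FDPS, the farnesyl diphosphate synthase, was nearly level in untreated cells at 157, 157 and 158 CPM. It was at 109, 152 and 160.4 in TALE and at 148, 137 and 154 in dCas9, and all 3 dCas9 libraries lay below the untreated ones by small margins. MVK and PMVK, the kinases that phosphorylate mevalonate in turn, were low, at 10.9 to 17.4 and 2.48 to 5.78 CPM over the 9 libraries. Both overlapped in every comparison. Over the 6 genes the median log2 fold change was -0.21 in TALE and -0.12 in dCas9 against untreated cells, each with 0 called. Without TALE replicate 1 the first was -0.11, and without dCas9 replicate 2 the second was -0.03.

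Between squalene and lanosterol, LSS had the smallest p of the set. LSS is the cyclase that closes squalene epoxide into lanosterol. It was at 50.2, 63.9 and 57.5 CPM in untreated libraries, 46.5, 48.6 and 41.1 in TALE, and 50.04, 49.4 and 54.1 in dCas9. TALE lay below both other groups without overlap. TALE against untreated cells stood at -0.33 in log2 (SE 0.12), a level 20.4% lower, with an edgeR adjusted p of 0.585 and an exact permutation p of 0.1. In silenced against untreated cells it was -0.24 (SE 0.10), with an edgeR adjusted p of 0.695, and -0.16 without untreated replicate 2. The exact permutation test over 6 against 3 libraries gave p = 0.0357 for that comparison, where 0.0119 is the smallest possible. That p was not adjusted for the number of genes. LSS was named for its small p in these same libraries, so the permutation test is not separate support.

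SQLE, the epoxidase and a controlled step of the route, was among the 3 genes of smallest p in dCas9 against untreated cells. It was at 346, 299 and 322 CPM untreated, 265, 317 and 308 in TALE, and 319, 258 and 256 in dCas9. One dCas9 library lay inside the untreated range and 2 below it. This gave a log2 fold change of -0.21 (SE 0.13), an edgeR adjusted p of 0.911 and an exact permutation p of 0.2. Without dCas9 replicate 1 it was -0.33. FDFT1, the squalene synthase, was at 494, 459 and 486 untreated, 295, 444 and 514 in TALE, and 491, 428 and 449 in dCas9, so TALE held both its lowest and its highest library.

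In the last steps, from lanosterol to cholesterol, EBP and SC5D were named by their p in dCas9 against untreated cells. EBP, which shifts a ring double bond, was at 90.7, 89.1 and 85.6 CPM untreated, 75.3, 92.6 and 97.4 in TALE, and 99.3, 89.1 and 119 in dCas9. It was the gene with the highest dCas9 fold change of the set, at 0.21 (SE 0.13; edgeR adjusted p = 0.909; exact permutation p = 0.2). TALE against dCas9 stood at -0.21 in log2 (SE 0.13), with an edgeR adjusted p of 0.824 and an exact permutation p of 0.4. One dCas9 library set the top: without dCas9 replicate 3 these values were 0.09 and -0.10, and without TALE replicate 1 that of TALE against dCas9 was -0.11. SC5D, the lathosterol desaturase, was at 47.9, 52.8 and 52.4 untreated, 34.6, 41.5 and 54.1 in TALE, and 42.7, 48.0 and 41.0 in dCas9. Its log2 fold change was -0.21 in dCas9 (SE 0.14; edgeR adjusted p = 0.939; exact permutation p = 0.2) and -0.22 in silenced against untreated cells (SE 0.12; edgeR adjusted p = 0.834; exact permutation p = 0.143).

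MSMO1, the methyl sterol oxidase, spread more within groups than most of the set. It was at 148, 158 and 167 CPM untreated, 77.5, 119.9 and 161 in TALE, and 181, 106 and 139 in dCas9. Its log2 fold change of -0.40 in TALE against untreated cells was the lowest of the 29, with an SE of 0.21 (edgeR adjusted p = 0.73). It was -0.17 without TALE replicate 1 and -0.67 without TALE replicate 3. HSD17B7, a sterol keto-reductase, had a like order of libraries in TALE, at 11.8, 17.6 and 24.5 CPM, beside 19.3, 22.0 and 21.8 untreated and 22.1, 16.4 and 15.0 in dCas9. NSDHL, a sterol decarboxylase, and DHCR7, which makes the final reduction to cholesterol, ran from 40.3 to 53.9 and from 88.1 to 123 CPM over the 9 libraries with all groups overlapping. TM7SF2, a sterol reductase, was at 7.33, 10.6 and 9.8 untreated, 6.47, 8.55 and 6.21 in TALE, and 8.62, 6.0 and 8.92 in dCas9. CYP51A1, the lanosterol demethylase, had only 15 to 75 counts a library. Of its exon bases in GENCODE 74.1% were shared with another gene, 68.2% on the same strand. The gene sharing the same strand has no entry of that name in the count table. How reads in shared bases were counted was not given. Its CPM ran from 1.55 to 5.78, a level that is therefore uncertain.

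**Figure D2:**
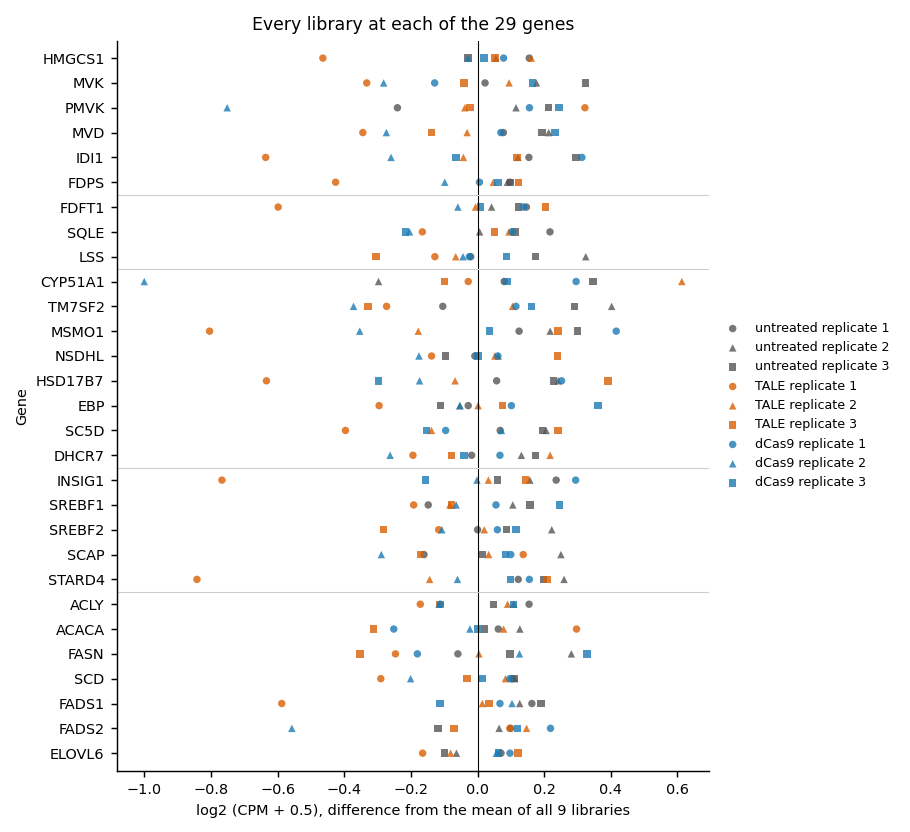
Difference of each library from the mean of all 9, in log2 (CPM + 0.5), for the 29 genes in order of role (vertical axis). Colours mark the groups and symbols the replicate. TALE replicate 1 is the leftmost point for 17 genes and lies more than 0.5 below the mean at IDI1, FDFT1, MSMO1, HSD17B7, INSIG1, STARD4 and FADS1.

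STARD4, a carrier of cholesterol between membranes, had the lowest fold change of the control and transport genes. It was at 82.3, 90.6 and 86.8 CPM untreated, 41.9, 68.4 and 87.5 in TALE, and 84.2, 72.5 and 81.0 in dCas9. TALE held the lowest library, spread widest and overlapped both other groups. The log2 fold change in TALE against untreated cells was -0.39 (SE 0.18; edgeR adjusted p = 0.692; exact permutation p = 0.3). It was -0.15 without TALE replicate 1 and -0.64 without TALE replicate 3, so its size rests on single libraries. INSIG1, the sterol-sensing anchor that SREBP itself induces, was at 483, 457 and 427 untreated, 241, 419 and 453 in TALE, and 503, 409 and 368 in dCas9. Apart from TALE replicate 1, the INSIG1 libraries lay between 368 and 503.

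The SREBP genes themselves were not called either. SREBF1, which codes for SREBP-1, was at 78.9, 94.2 and 97.7 CPM untreated, 76.5, 82.5 and 82.8 in TALE, and 90.9, 83.6 and 104 in dCas9. TALE lay just below dCas9, by under 1 CPM at the nearest libraries. The log2 fold change of TALE against dCas9 was -0.20 (SE 0.12; edgeR adjusted p = 0.821; exact permutation p = 0.1), and -0.12 without dCas9 replicate 3. SREBF2, which codes for SREBP-2, was at 160.1, 187 and 170.0 untreated, 148, 162 and 132 in TALE, and 167, 149 and 173 in dCas9. In TALE against untreated cells SREBF2 stood at -0.23 in log2 (SE 0.12), with an edgeR adjusted p of 0.732 and an exact permutation p of 0.2, and at -0.15 without TALE replicate 3. SCAP, the escort of both, was at 60.6, 80.7 and 68.5 untreated, 74.6, 69.4 and 60.1 in TALE, and 72.7, 55.4 and 71.9 in dCas9. For SREBF2 and SCAP every pair of groups overlapped.

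Among the 7 fatty acid genes, FASN had the smallest p in TALE against dCas9. FASN is the synthase that builds palmitate. It was at 874, 1107 and 974 CPM untreated, 768, 913 and 713 in TALE, and 803, 994 and 1144 in dCas9. TALE reached into the dCas9 range with replicate 2. The 2 silenced groups differed by -0.30 in log2 (SE 0.16; edgeR adjusted p = 0.814; exact permutation p = 0.2), and FASN against untreated cells was at -0.30 in TALE and -0.01 in dCas9. Without dCas9 replicate 3 the first of these was -0.18, and the last ran from -0.13 to 0.12 when single libraries were left out. SCD, which puts the first double bond into stearate, was at 699, 702 and 703 untreated, 532, 689 and 636 in TALE, and 695, 566 and 657 in dCas9. Its untreated libraries were so alike that dCas9 replicate 1 lay below them by only a few CPM. FADS1, the delta-5 desaturase and the gene of most counts, was at 1281, 1249 and 1306 untreated, 761, 1156 and 1172 in TALE, and 1199, 1229 and 1058 in dCas9. Both SCD and FADS1 separated untreated from silenced libraries. Their silenced log2 fold changes were -0.16 (SE 0.12) and -0.23 (SE 0.14), with edgeR adjusted p-values of 0.891 and 0.86. The exact permutation test gave p = 0.0952 and p = 0.131 for them in that comparison. The silenced log2 fold change of FADS1 was -0.14 without TALE replicate 1.

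ACLY, which makes cytosolic acetyl-CoA from citrate, was at 285, 276 and 264 CPM untreated, 227, 272 and 236 in TALE, and 237, 236 and 276 in dCas9. ACACA, the acetyl-CoA carboxylase, went against the rest in TALE replicate 1, at 212 CPM, above the other 8 libraries at 139 to 188. Its dCas9 libraries, at 145, 169 and 172, lay below the untreated 179.8, 188 and 175. FADS2, the delta-6 desaturase, ran from 15.3 to 26.6 CPM, and dCas9 replicate 2 was its lowest library. ELOVL6, the elongase of palmitate, varied least of the set, from 141 to 172 CPM, a 1.22-fold range. In the annotation used here FADS1 lies within the span of FADS2 on the opposite strand. FADS1 and FADS2 share 4.8% and 4.6% of their exon bases with each other.

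TALE replicate 1 was the lowest of the 9 libraries for 17 of 29 genes, or 58.6%, where it was lowest for 15.1% of all genes. dCas9 replicate 2 was lowest for 7, or 24.1%, against 16.7% of all genes, TALE replicate 3 for 4, dCas9 replicate 3 for 1 and the untreated libraries for 0. Relative to the median of the other 8 libraries, TALE replicate 1 was at 81.3% for the median gene of the set and at 99.4% for the median of all genes. It was lowest in proportion at STARD4 (50.4%), MSMO1 (50.7%), INSIG1 (54.7%), HSD17B7 (57.3%) and IDI1 (59.1%). PMVK (123%), ACACA (122%), SCAP (108%) and FADS2 (101%) were not below that median. Its median difference from the 9-library mean was -0.38 for early mevalonate genes and -0.17 for both the squalene and the fatty acid genes. In the TALE replicates 2 and 3 the median over the set was 0.02 and -0.02, so the 3 libraries of that group did not behave alike.

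dCas9 replicate 2 had a median of -0.12 over the set, with -0.27 for the early mevalonate genes. Its mitochondrial share was 14.01%, the highest of the 9, while TALE replicate 1 had 6.00%, near the low end. The 3 untreated libraries had medians of 0.07, 0.13 and 0.12. The part of the mitochondrial share in these levels was not tested. The pooled SD of that median between replicates was 0.11, of the same order as the difference between groups. Within groups, the SD of log2 values was 0.20 at the median gene of the set and 0.20 at the median of all genes.

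**Figure D3:**
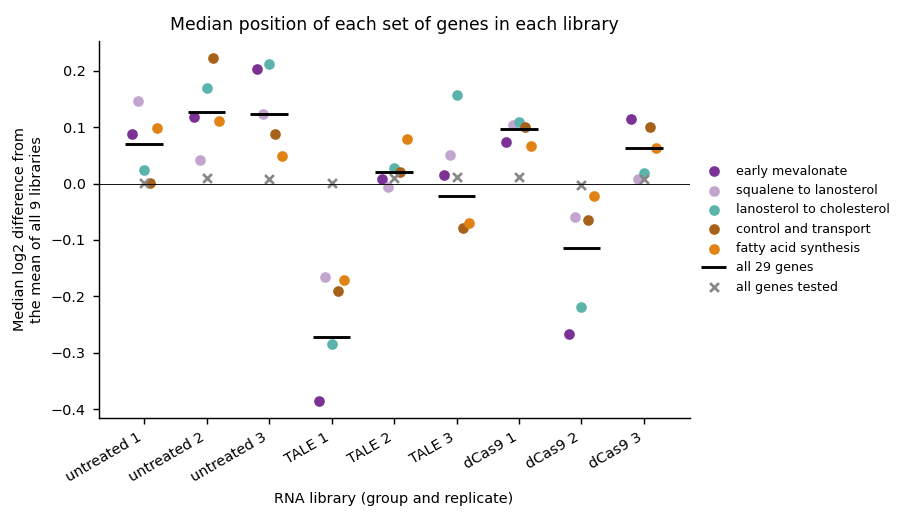
Median log2 difference from the mean of all 9 libraries (vertical axis) in each RNA library (horizontal axis). Coloured points are the 5 roles, black bars all 29 genes and grey crosses all genes tested. The black bar is at -0.27 in TALE replicate 1 and at -0.12 in dCas9 replicate 2, while the crosses stay near 0 in every library.

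Other genes of the same pathways were counted on fixed lists. By edgeR with adjustment over all genes 0 were called in any comparison, against 0% to 0.0363% of all genes. At an unadjusted p under 0.05, from 0 to 2 genes of a list passed in a comparison, against 5.93% to 7.15% of all genes. Of 13 tested genes of sterol synthesis outside the set, 5 of 13 were below 0 in TALE and 10 of 13 in dCas9 against untreated cells. Their medians were 0.02 and -0.04. Of all genes, 49.4% and 50.8% were below 0 in these comparisons. Of 13 further genes of SREBP control 4 were below 0 in each of these comparisons. Of 12 tested genes of sterol uptake and handling 7 and 6 were below 0, and of 24 further fatty acid genes 17 and 13. Of 10 genes of LXR and sterol efflux only 4 were tested, of which 3 and 4 were below 0. ELOVL7, an elongase of fatty acids, had the smallest p of these lists. It was at 34.5, 33.2 and 36.5 CPM untreated, 21.3, 27.8 and 26.8 in TALE, and 27.2, 23.1 and 28.5 in dCas9, with all silenced libraries below all untreated ones. Its silenced log2 fold change was -0.43 (SE 0.11), with an edgeR adjusted p of 0.295.

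ACSS2, which makes acetyl-CoA from acetate, shared the drop of TALE replicate 1: it was at 97.7, 103 and 103 CPM untreated, 53.2, 98.5 and 95.03 in TALE, and 113, 108 and 112 in dCas9. STARD3, a late-endosomal sterol carrier, was at 13.0, 13.0 and 14.4 untreated, 10.3, 12.2 and 9.26 in TALE, and 10.7, 9.42 and 11.996 in dCas9. All 6 silenced STARD3 libraries lay below the untreated ones, with a log2 fold change of -0.34 (SE 0.14) and an edgeR adjusted p of 0.687. INSIG2, the second INSIG protein, had a log2 fold change of -0.48 (SE 0.21) in TALE against dCas9, or -0.28 without dCas9 replicate 1, and RNF145, a ubiquitin ligase of the endoplasmic reticulum, one of 0.25 (SE 0.12) in TALE against untreated cells. The edgeR adjusted p-values of these were 0.747 and 0.696. LBR, a sterol reductase of the nuclear envelope, and PGRMC1, a haem-binding partner of sterol enzymes, had log2 fold changes between -0.10 and 0.21 in all comparisons. LPCAT3 and RXRA, the lipid acyltransferase and the LXR partner receptor, lay between -0.23 and 0.18.

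Levels were compared between genes per length, as FPKM (CPM per kilobase of annotated exon). The length joins the exons of all annotated transcripts of a gene and can exceed that of any 1 transcript, so the order depends on the annotation. MVK, at 15.7 CPM untreated over 9018 bp, thereby ranked below PMVK, at 4.67 CPM over 1002 bp. In untreated cells SCD was highest at 134 ± 0.432 FPKM (SD, n = 3), followed by FADS1 at 125 ± 2.78, INSIG1 at 125 ± 7.61, FASN at 106 ± 12.5 and FDFT1 at 94.4 ± 3.56. SQLE (74.8), MSMO1 (55.3), IDI1 (54.8), ACLY (52.8), EBP (50.02), HMGCS1 (47.7) and FDPS (42.3 FPKM) came next. NSDHL (22.6), SREBF2 (21.4), ELOVL6 (21.4), DHCR7 (16.5), STARD4 (15.2), ACACA (13.9), MVD (11.2), SCAP (11.1) and SREBF1 (10.96 FPKM) were intermediate. LSS (7.9), SC5D (5.08), PMVK (4.66), HSD17B7 (4.39), TM7SF2 (2.72), FADS2 (2.19), MVK (1.74) and CYP51A1 (0.911 FPKM) closed the order. Of the 28 neighbouring pairs, 15 had untreated ranges that overlapped, among them FADS1 with INSIG1, FASN with FDFT1, MSMO1 with IDI1 and SREBF2 with ELOVL6. Pairs such as FDFT1 with SQLE, FDPS with NSDHL and SREBF1 with LSS did not overlap.

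Reads of near-identical copies could be split between a gene and its copy, depending on the counting, which was not given. SCDP1, a processed copy of SCD, had 94 to 168 counts a library, where SCD had 5425 to 8941. FDPSP1 had 9 to 29 counts and FDPSP5 2 to 21, where FDPS had 1117 to 1974. HSD17B7P2 had 1 to 5. The other 7 FDPS and HSD17B7 copies in the table had at most 6 counts in a library. Exon bases shared with other genes in GENCODE made up 37.7% for HMGCS1, 36.4% for EBP, 18.6% for FDPS and 15.0% for IDI1. For the other members apart from CYP51A1 they made up at most 9.1%. The genes that share bases with HMGCS1 and EBP have no entry of that name in the count table.

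**Figure D4:**
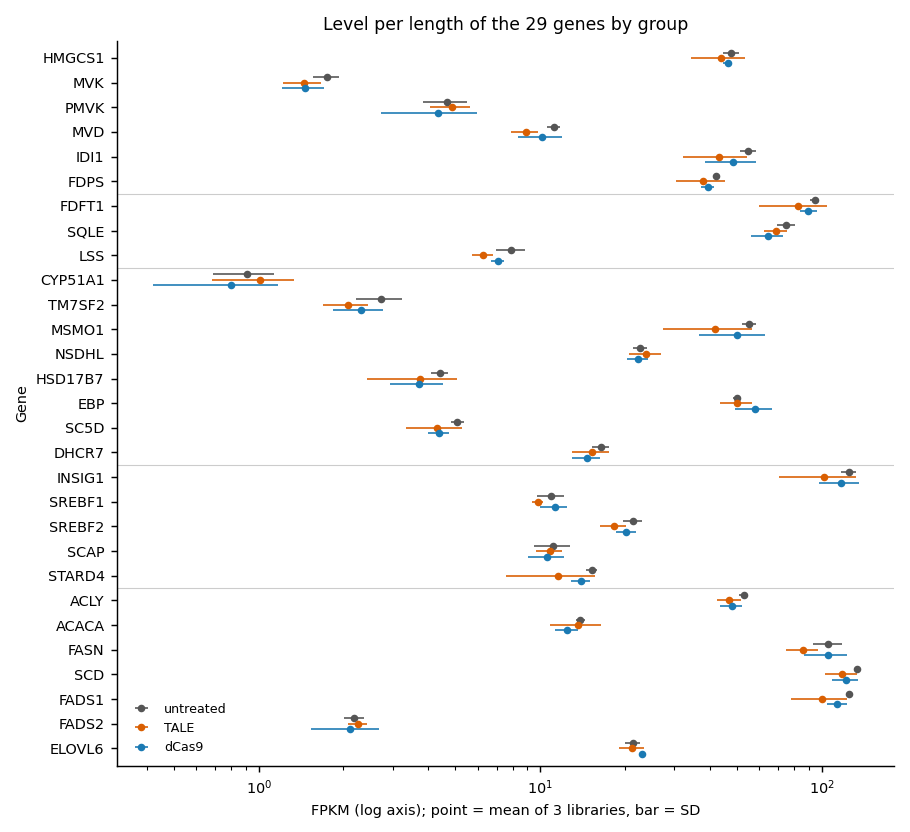
FPKM of each of the 29 genes (vertical axis, in order of role) on a log horizontal axis, as the mean of 3 libraries (points) with the SD (bars), by group. Levels span from 0.911 FPKM for CYP51A1 to 134 for SCD in untreated cells, and the TALE bar is long at FDFT1, INSIG1 and STARD4.

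DNA methylation was measured by MeDIP-seq, in which fragments bound by an antibody against methylated cytosine are counted over regions. Total counts were 2529729 to 4492751 a library. The table holds only regions in which a peak was called in at least 1 library. A gene start here is the outermost 5′ base of the gene in GENCODE on GRCh37, whereas the promoters above used RefSeq starts. These do not coincide at every gene, FADS1, FADS2 and DHCR7 being examples, and regions at other transcript starts were not looked for. Within 2 kb of the gene starts so defined it held 18 regions at 15 of the 29 genes. The other 14 genes had none, so their start windows were not measured. FDFT1 and FADS1 had a region across this outermost start.

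The region across the FDFT1 start, which overlaps an exon of the gene with untranslated sequence, held 32, 42 and 34 counts in untreated libraries, 21, 26 and 25 in TALE, and 26, 41 and 14 in dCas9. TALE lay below untreated on raw counts, but scaled to library size the untreated libraries were at 9.83, 17.8 and 10.6 CPM and TALE at 9.7, 10.2 and 6.87, which overlap. The region across the FADS1 start held 18, 13 and 15 untreated, 11, 11 and 26 in TALE, and 18, 16 and 8 in dCas9. No start region fell or rose by the test. Of the 15 start regions with enough counts, edgeR called 0 in TALE against untreated cells (0% of all regions) and 0 in dCas9 against untreated cells (0.000947%). It also called 0 in TALE against dCas9 (0.000947%) and 0 in silenced against untreated cells (0%). DESeq2 also called 0 in each. At an unadjusted p under 0.05 the counts were 0 of 15 (4.74% of all regions), 1 (4.69%), 0 (4.47%) and 0 (4.88%) in the same order.

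The 1 region was upstream of SREBF2, at chr22:42226910-42227179 in GRCh37, -2199 to -1930 bp from the gene start and overlapping an exon with untranslated sequence of the neighbouring gene CCDC134. It held 13, 14 and 5 counts in untreated libraries, 9, 14 and 25 in TALE, and 16, 21 and 21 in dCas9. Scaled to library size, untreated libraries were at 3.99, 5.94 and 1.56 CPM and dCas9 at 6.32, 5.45 and 9.07, so the groups overlapped. The log2 fold change of dCas9 against untreated cells was 0.87 (SE 0.42), with an edgeR adjusted p of 1.00 over all regions. The start region with the most counts was before FADS2, at chr11:61557943-61559041, -2509 to -1411 bp from the gene start and overlapping an exon of TMEM258. It held 62, 49 and 46 counts untreated, 44, 51 and 70 in TALE, and 64, 82 and 49 in dCas9. Across the gene bodies 195 of 296 regions had enough counts and edgeR called 0 in any comparison, against 0% to 0.000947% of all regions. At an unadjusted p under 0.05, 11 to 13 of 195 passed in the comparisons with untreated cells, against 4.69% to 4.88% of all regions. In TALE against dCas9 7 passed, against 4.47%.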

How the data were processed

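RNA-seq and MeDIP-seq of K562 cells were used as deposited, in 3 groups of 3 libraries per assay. The authors deposited whole-number read counts per gene symbol (RNA) and per region (MeDIP). Per the submitters' processing notes, STAR 2.3.0 was used for RNA, and BWA 0.7.5, Picard, MACS2 and bedtools for MeDIP, on hg19. The RNA counter, its annotation and its use of strand were not given in the sources used here. Fold ratios in the deposited peak lists are the authors', and peaks were called per sample. RNA was amplified with a kit for degraded RNA, per the labels' protocols, which can add spread between libraries.

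The test was edgeR's quasi-likelihood F test (edgeR 4.0.16, R 4.3.3), with TMM scaling and filterByExpr at a minimum of 10 counts. All 9 libraries of an assay entered 1 fit with a mean for each group. Calls were made at an adjusted p under 0.05. Log2 fold changes used a prior count of 0.125, and permutation tests a pseudocount of 0.5 CPM. The steps were tested on simulated data. FPKM used the joined exon length of all transcripts of a gene in GENCODE on GRCh37, which may differ from the authors' annotation. Region starts were raised by 1 to count from 1. Promoters came from RefSeq (GRCh38.p14). Fold changes with tests were given for the 3 genes of smallest p in each comparison, up to 2 genes per other list, and start regions with p under 0.05 or the highest count. SCD, FADS1, MSMO1, SREBF2, and the FDFT1 and FADS1 regions were added after their values were seen. A gene and a region are not reported here. The genes and lists were chosen with earlier results of these data known. Alternatives were other scalings and filters, DESeq2 1.42.0, a replicate block and leaving out each library. Same-numbered libraries did not deviate together, so numbers were not taken as pairs.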

Additional observations from a re-analysis of the deposited data

How the results depend on the processing

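The count of called genes stayed at 0 of 29 in all 4 comparisons under each of 16 alternatives (15 for silenced against untreated cells, where all 9 libraries are already in the model), and the count of called start regions stayed at 0 under each of 14. The median log2 fold change of the set ran from -0.25 to -0.09 in TALE and from -0.16 to -0.05 in dCas9 against untreated cells. It ran from -0.14 to 0.02 in TALE against dCas9 and from -0.19 to -0.11 in silenced against untreated cells. A fit without both TALE replicate 1 and dCas9 replicate 2 was not among these alternatives. It gave a median of -0.07 in silenced against untreated cells, outside that range. Of the 25 fold changes of single genes that were recomputed, 23 kept their sign under each alternative. FASN in dCas9 against untreated cells, at -0.01, ran from -0.13 to 0.12 with single libraries left out and was 0.0053 without a filter on low counts. SREBF1 in that comparison, at 0.04, ran from -0.047 to 0.11. STARD4 in TALE against untreated cells ran from -0.64 to -0.15 and LSS from -0.41 to -0.24. With TALE replicate 3 left out, 10 of 29 genes had an unadjusted p under 0.05 in TALE against untreated cells, against 14.4% of all genes, with a smallest edgeR adjusted p of 0.088.

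Leaving out both TALE replicate 1 and dCas9 replicate 2, the counts below 0 without either, and the alternatives for genes outside the rule for named genes were chosen after seeing the data. Without TALE replicate 1, the genes below 0 in TALE against dCas9 fell from 20 to 12 of 29, and without dCas9 replicate 2 they numbered 24. Replicate numbers are shared between groups, and a fit with the replicate block called 0 of 29 genes and 0 start regions in every comparison, with medians of -0.18, -0.13, -0.09 and -0.15. Deviations of same-numbered RNA libraries correlated between -0.284 and 0.103, and those of MeDIP libraries between -0.00475 and 0.00399, so the numbers were not taken to pair the samples. Without a filter on low counts the median log2 fold change of all genes was -0.23 in TALE against untreated cells, below that of the set. MeDIP regions near the starts held few counts, at most 82 in a library, which limits what could be seen there. Thinly counted genes, with as few as 15 counts for CYP51A1, had the widest intervals.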
